A study of Mus musculus with 15 samples.

Results

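The genes described here are 36 ribosome biogenesis factors, taken as a given list of gene symbols and matched by identifier in count tables of 78317 genes. All 36 were found in all 15 libraries, and all 36 passed the filter on low counts. They were separated by role into 5 genes of RNA polymerase I transcription, 5 of the small nucleolar ribonucleoproteins (snoRNPs) and their assembly, 14 of small-subunit assembly, 8 of large-subunit assembly, and 4 nucleolar proteins with several roles.

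Ribosomes are assembled in the nucleolus, where RNA polymerase I transcribes one long precursor of the ribosomal RNAs. SnoRNPs modify that precursor, and separate sets of assembly factors fold, cut and export the pieces that become the small and the large subunit. The messages of these factors are present in all growing cells, and in the embryonic heart they accompany the proliferation of the myocardium.

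The libraries came from heart ventricles of C57BL/6 mouse embryos at embryonic day 11.5, which received no treatment. In one line the coding exons of Atf4, which encodes a stress-response transcription factor, were flanked by loxP sites and its polyadenylation signal was kept. The other line had loxP sites around that polyadenylation signal (PAS). Xmlc2-Cre, which acts in cardiomyocytes, produced the knockouts of both lines: 4 libraries labelled CDS knockout and 4 labelled PAS knockout, beside 4 labelled CDS control and 3 labelled PAS control. The labels do not say which alleles the controls carry or whether they carry Cre. The ventricle's endothelium, epicardium, mesenchyme and blood are not targets of this Cre, so each library mixes cells with and without the deletion, and in bulk RNA fewer cells of a type cannot be told apart from less RNA per cell.

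CPM below are counts scaled to a common library size. Atf4 itself was measured at 44.5 ± 3.56 CPM (SD, n = 4) under the CDS knockout label and at 114 ± 1.99 CPM (n = 4) in its controls. Under the PAS knockout label it stood at 286 ± 18.8 CPM (n = 4), above the 97.1 ± 4.27 CPM (n = 3) of its controls, so its count is higher, not lower, in libraries labelled as a knockout. Because of that direction the libraries are called "labelled PAS knockout" throughout. The labels also conflict on sample preparation: the design text names dissected ventricle and a stranded kit that selects polyadenylated RNA, whereas the extraction text names cultured cortical neurons and removal of ribosomal RNA. Heart markers were present in every library, with summed levels of 5 cardiomyocyte genes from 21200 to 25800 CPM, while 4 neuronal genes summed to at most 19.6 CPM and one of them, Neurod1, was at 0 in most libraries.

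Total counts ran from 30376847 to 46472141 in the 8 CDS libraries and from 22623499 to 29315724 in the 7 PAS libraries, so every CDS library was deeper than every PAS library. The batch label is 1 throughout, and the design text calls the replicates biological. Markers of choroid plexus, a tissue of the brain, summed to between 18.5 and 221 CPM in CDS libraries and to at most 3.52 CPM in PAS libraries. The sum was highest in CDS knockouts 3 and 4 (Ttr at 104 and 154 CPM, Enpp2 at 43.5 and 64.2 CPM). In CDS libraries most of it came from these genes. Of the other markers, Folr1 overlapped between CDS (1.05 to 2.04 CPM) and PAS libraries (0.614 to 1.86 CPM). Otx2 was at most 0.702 CPM in any library. CDS knockout 3 also had 3.24% of its counts in the unnamed gene ENSMUSG00000119584, against 0.638% to 0.643% in the other CDS knockouts. Summed cardiomyocyte markers were 21200 to 24400 CPM in CDS knockouts and 23600 to 25800 CPM in CDS controls. Those of 5 endothelial markers did not overlap, at 1120 to 1160 CPM in CDS knockouts and 1190 to 1260 CPM in CDS controls. The part of these differences in the results below was not tested. Some values are also given without CDS knockouts 3 and 4. The CDS libraries that remain are still deeper, and the CDS controls still held 18.5 to 53.1 CPM of choroid plexus markers. Such a fit rests on CDS knockouts 1 and 2 alone, so it cannot separate these differences from the effect of fewer libraries.

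Across all groups the summed level of the factors lay in one narrow range. Summed over the 36 genes, the CDS knockouts held 3605 to 3817 CPM, the CDS controls 3568 to 3809 CPM, the libraries labelled PAS knockout 3615 to 3806 CPM and the PAS controls 3684 to 3782 CPM. These ranges overlap in every pairing of the 4 groups. Between the lowest and the highest of the 15 libraries a single factor varied by 1.09-fold (Ubtf) to 1.42-fold (Rrs1), and for 27 of the 36 the range was under 1.25-fold. Even the scarcest, Rrs1, had at least 264 counts in each library. The median SD between libraries of a group was 0.064 on the log2 scale for the factors, against 0.154 for all 20269 tested genes, whose median level (9.17 CPM) was below that of the factors (62.7 CPM).

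Levels of different genes were compared only as CPM per kb of annotated exon. On that scale the factors spanned 2.58 (Wdr12) to 249 (Npm1) CPM per kb. Npm1, which encodes nucleophosmin, an abundant nucleolar chaperone, and Ncl, which encodes nucleolin, were the top genes, with Ncl at 67.6 CPM per kb. Mybbp1a, a nucleolar protein that binds Myb and acts on polymerase I transcription, followed at 35.4 CPM per kb, and the box C/D snoRNP core protein Nop56 at 31.9 CPM per kb. The exon length counts all isoforms together, 11955 bases for Wdr12 and 10188 for Ncl, which lowers the per-kb value of genes with long rare isoforms.

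**Figure D1:**
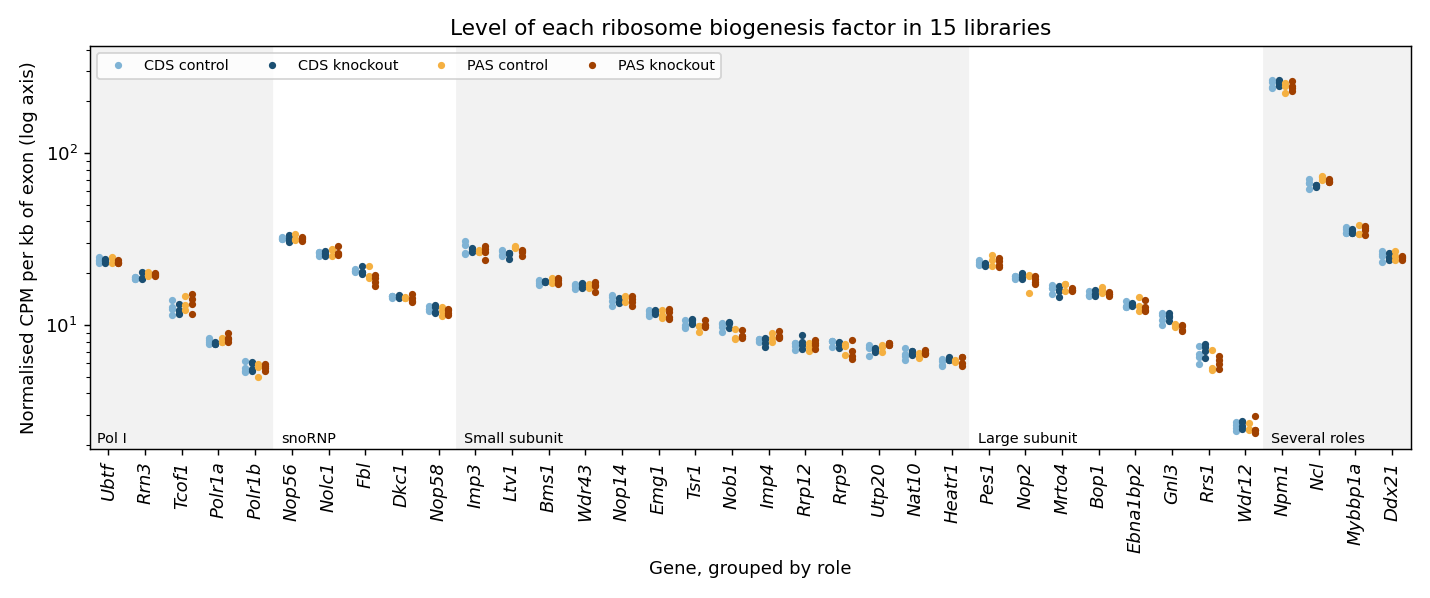
Normalised CPM per kb of exon (log axis) of each of the 36 factors, grouped by role and ordered by level, with 1 point per library coloured by group. The 4 groups are drawn side by side and, on this log axis, lie at similar heights for nearly every gene. Npm1 stands highest at a mean of 249 CPM per kb.

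Polymerase I, snoRNP, small-subunit and large-subunit genes overlapped widely in level. Polymerase I genes ran from 5.66 (Polr1b) to 23.7 (Ubtf) CPM per kb, and snoRNP genes from 12.2 (Nop58) to 31.9 (Nop56) CPM per kb. Small-subunit factors ran from 6.19 (Heatr1) to 27.2 (Imp3) CPM per kb, and large-subunit factors from 2.58 (Wdr12) to 23.1 (Pes1) CPM per kb. Medians were 12.9, 19.9, 9.74 and 14.2 CPM per kb in that order, and 51.5 for the nucleolar proteins with several roles. Those ran from 25 (Ddx21) to 249 (Npm1) CPM per kb, and only Ddx21 lay within the range of the other roles.

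Promoter sequence was read from RefSeq (GRCm38.p6), 250 bases before to 50 bases after each annotated start, which held 30 of the 36 factors. Fbl, Npm1, Bop1, Rrs1, Rrp12 and Tcof1 were not matched. The E-box CACGTG, the site of Myc and its partner Max, reads the same on both strands. It was found for 9 of those 30 (30%), namely Imp4, Ltv1, Mybbp1a, Nop2, Pes1, Rrn3, Tsr1, Utp20 and Wdr43, and for 8.09% of all genes in the table (7.15% of its 32851 promoters). The ATF4 element TGATGNAA, searched on both strands, was found for 1 of 30 (3.33%), Nop14, and for 4.51% of all genes (3.97% of promoters). A match is only a match of letters. Of the 10 E-box matches 6 lie after the annotated start. Shown here, with the motif in capitals, are the 4 that lie before it, since those are in promoter sequence proper, and the only ATF4 element:
Imp4: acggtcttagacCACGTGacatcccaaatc
Nop2: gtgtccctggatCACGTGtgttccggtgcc
Rrn3 distal: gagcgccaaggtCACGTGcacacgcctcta
Rrn3 proximal: ttacgctctgctCACGTGggccgcgtcccg
Nop14: tgggcgtggttTTACATCAgcatcctatgc

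These stretches lie at chr1:34439696-34439725 for Imp4, chr6:125131811-125131840 for Nop2, chr16:13780472-13780501 and chr16:13780639-13780668 for Rrn3 (all on the plus strand), and chr5:34660109-34660138 for Nop14 (minus strand). Their motifs begin at -121, -60, -215, -48 and 22 bases from the start, and the last, within the transcribed sequence, is the element on the opposite strand.

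The first question was whether loss of the Atf4 coding sequence in cardiomyocytes came with a change of these messages. None of the 36 factors was called in CDS knockouts against CDS controls by edgeR's quasi-likelihood test, and all 36 Benjamini-Hochberg adjusted p-values were 1 after rounding. Of all tested genes, 0.0543% were called in that comparison. No factor reached an unadjusted p under 0.05 either, against 2.62% of all tested genes, and none had groups that did not overlap (2.8% of all genes). Estimated log2 changes ran from -0.04 to 0.10 with a median of 0.00, the same median as over all genes, and 18 were positive and 18 negative. The intervals were narrow: 34 of 36 intervals (95%, from the model's standard errors) lay within 0.2 log2 of no change, and all 36 lay within a 1.25-fold change either way.

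Between libraries labelled PAS knockout and PAS controls no factor was called either (smallest adjusted p = 0.934, edgeR's quasi-likelihood test), where 0.00987% of all tested genes were called. Only Fbl and Ltv1 had an unadjusted p under 0.05, which is 2 of 36 beside 5.24% of all genes. Estimates ran from -0.15 (Fbl) to 0.07 (Utp20) with a median of -0.01, against 0.00 over all genes. All 36 intervals again lay within a 1.25-fold change, 32 of them within 0.2 log2.

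**Figure D2:**
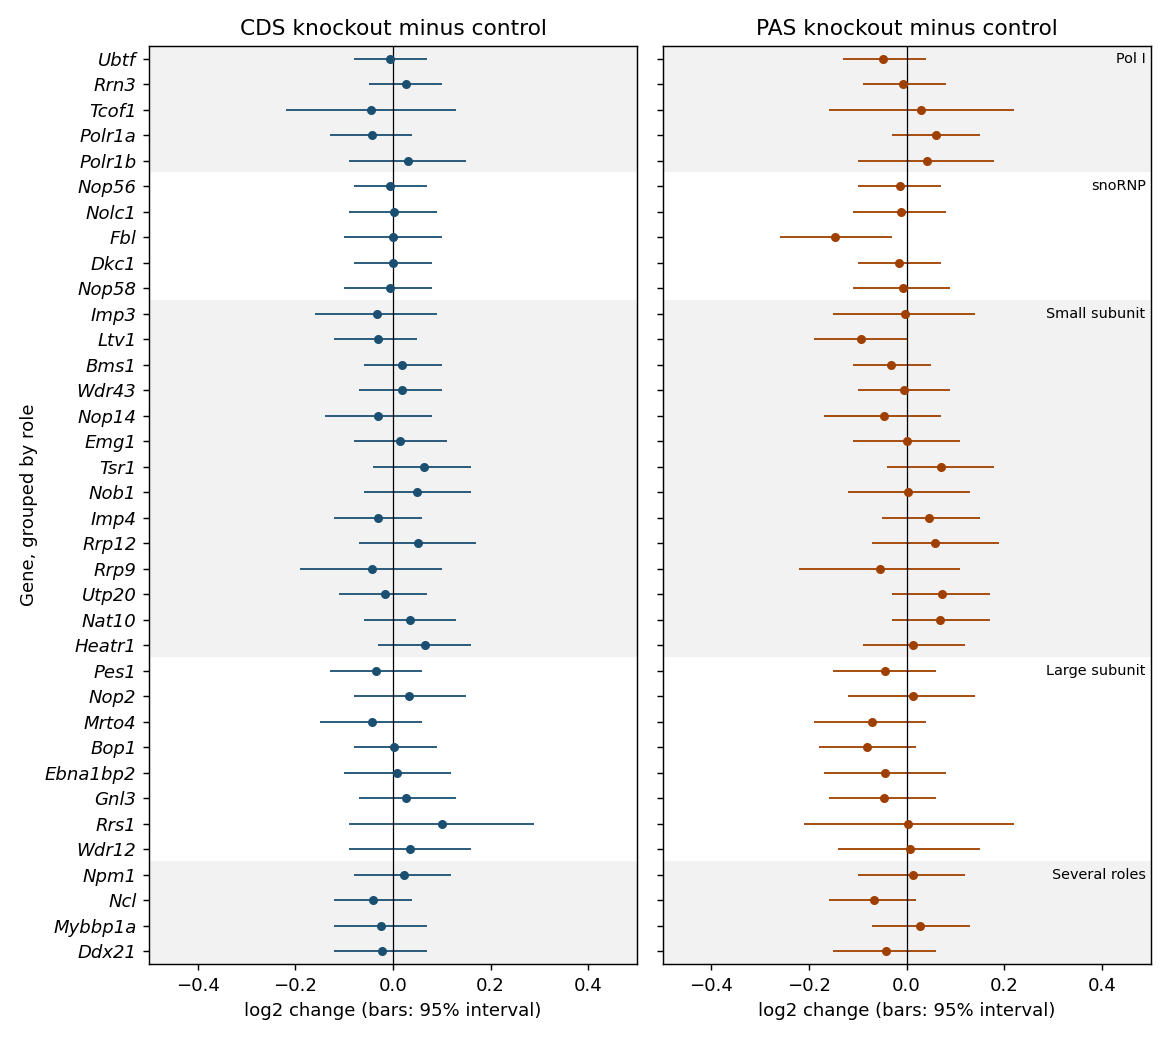
Log2 change of each factor with its 95% interval (bars) in CDS knockouts against CDS controls (left) and in libraries labelled PAS knockout against PAS controls (right), grouped by role. Every interval on the left spans 0, and on the right only those of Fbl and Ltv1 do not.

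Among the polymerase I genes, Ubtf, which encodes the factor that binds ribosomal DNA and keeps it open, had the narrowest range over the 15 libraries (1.09-fold). It measured 159, 155, 150 and 156 CPM in the CDS knockouts and 157, 150, 162 and 154 CPM in their controls. With the PAS knockout label it measured 150, 156, 152 and 151 CPM, and 160, 150 and 163 CPM in the PAS controls. The ranges overlapped in both lines, and the log2 changes were -0.01 ± 0.04 (SE) and -0.05 ± 0.04.

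Rrn3, the factor that brings polymerase I to its promoter, was at 80.2, 80.8, 81.4 and 87.7 CPM in CDS knockouts and at 81.9, 79.8, 79.7 and 82.5 CPM in CDS controls. CDS knockout 4 stands above the other 3 there, and the groups overlap. Among PAS embryos Rrn3 lay between 83.1 and 88.3 CPM in all 7 libraries, with a log2 change of -0.01 ± 0.04 under the knockout label. Polr1a, the largest polymerase I subunit, had a log2 change of -0.04 ± 0.04 among CDS embryos and 0.06 ± 0.04 among PAS embryos. Its level was 92.9 ± 1.04 CPM (SD, n = 4) for knockouts of the CDS line and 99.8 ± 5.48 CPM (n = 4) under the PAS knockout label, with controls at 95.6 ± 3.32 (n = 4) and 95.8 ± 3.13 CPM (n = 3). For Polr1b, another catalytic subunit, the changes were 0.03 ± 0.06 and 0.04 ± 0.07. Tcof1, which encodes treacle, a partner of polymerase I, had the widest intervals of this role, from -0.22 to 0.13 and from -0.16 to 0.22.

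Fbl was the snoRNP gene that differed most under the PAS knockout label. It encodes fibrillarin, the methyltransferase of box C/D snoRNPs, and lies on chromosome 7 (GRCm39, chr7:27869135-27878694, plus strand). Its levels were 82.0, 70.8, 78.5 and 74.4 CPM under the PAS knockout label and 81.4, 92.9 and 79.4 CPM in PAS controls. The highest library with the knockout label lies above the lower controls, so the groups overlap. The log2 change was -0.15 ± 0.05 (unadjusted p = 0.0142, adjusted p = 0.934 by edgeR's quasi-likelihood test), which is not a call. Among CDS embryos Fbl was 85.2, 86.1, 83.8 and 92.8 CPM in knockouts and 89.4, 85.7, 86.6 and 86.2 CPM in controls, a log2 change of 0.00 ± 0.05. The difference between both changes, tested as an interaction, was -0.15 ± 0.07 (unadjusted p = 0.061, adjusted p = 0.995).

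The other snoRNP genes had changes smaller than their standard errors in both lines. Nop56 and Nop58, which form the core of box C/D snoRNPs with fibrillarin, both had changes of -0.01 ± 0.04 among CDS embryos. Under the PAS knockout label their changes were -0.01 ± 0.04 and -0.01 ± 0.05. Dkc1, the pseudouridine synthase of box H/ACA snoRNPs, varied least of all 36 within groups (SD 0.039 log2), with 60.3 ± 1.01 CPM in CDS knockouts and 60.4 ± 0.799 CPM in their controls (n = 4 each). Nolc1, a chaperone of snoRNPs, had changes of 0.00 ± 0.04 and -0.01 ± 0.05.

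Small-subunit factors include the components of the U3 snoRNP and the processome built around it, and late factors that accompany the particle to the cytoplasm. Ltv1, one of the late factors, was at 61.8, 58.7, 62.1 and 63.2 CPM under the PAS knockout label. All 4 lie below the PAS controls, at 65.7, 64.7 and 66.4 CPM. The log2 change was -0.09 ± 0.04 (unadjusted p = 0.0472, adjusted p = 0.951 by edgeR's quasi-likelihood test), and groups that do not overlap, with the knockout label lower, were found for 2.38% of all tested genes. Among CDS embryos Ltv1 overlapped between knockouts (55.7 to 61.1 CPM) and controls (58.7 to 63.3 CPM), with a change of -0.03 ± 0.04.

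Utp20, a large scaffold of the processome, showed the opposite order. It measured 80.0, 78.5, 78.5 and 79.7 CPM under the PAS knockout label, and the PAS controls 71.2, 76.4 and 78.5 CPM. The groups are separated only by the small step from 78.5 to 78.54 CPM. The log2 change was 0.07 ± 0.05 (unadjusted p = 0.149), beside 2.21% of all genes whose groups did not overlap with the knockout label higher. In CDS knockouts Utp20 was 71.2 to 74.8 CPM and in CDS controls 67.0 to 78.4 CPM. The interaction was 0.09 ± 0.06 (unadjusted p = 0.192), so the lines were not shown to differ.

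Heatr1, another processome scaffold, had the largest positive estimate among small-subunit factors among CDS embryos, 0.07 ± 0.05, with 49.1, 49, 49.6 and 50.8 CPM in knockouts and 45.6, 45.3, 49.9 and 48.5 CPM in controls. One control lies within the knockouts' range. Under the PAS knockout label its change was 0.01 ± 0.05. Rrp9, a protein of the U3 snoRNP, had the most negative estimate of this role among CDS embryos, -0.04 ± 0.07, and -0.06 ± 0.08 among PAS embryos. Nat10, which acetylates the small-subunit RNA, had changes of 0.03 ± 0.04 and 0.07 ± 0.05. Imp3, a U3 snoRNP partner, had changes of -0.03 ± 0.06 and 0.00 ± 0.07. Over all 14 small-subunit factors 8 estimates were positive and 6 negative in each line, and the medians were 0.02 and 0.00.

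Large-subunit factors had 6 positive and 2 negative estimates in CDS knockouts and 3 positive and 5 negative ones under the PAS knockout label, none of them called. Rrs1, which helps to bring the small 5S particle into the precursor, had the largest estimate of all 36 among CDS embryos, 0.10 ± 0.09, and also the widest interval, from -0.09 to 0.29. Its levels were 15.3, 14.5, 13.2 and 15.9 CPM in CDS knockouts and 13.9, 12.2, 15.5 and 13.4 CPM in controls, so the groups overlap. Rrs1 is the scarcest factor in CPM, and 39.4% of its exon bases are shared with the gene 2610203C22Rik on the opposite strand, which had a mean of 22 counts.

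Pes1, Bop1 and Wdr12 form one complex that is needed to mature the large-subunit RNA. Pes1 had changes of -0.03 ± 0.04 among CDS embryos and -0.04 ± 0.05 among PAS embryos. Bop1 had changes of 0.00 ± 0.04 and -0.08 ± 0.05, the latter with an unadjusted p of 0.0946. Wdr12 had changes of 0.03 ± 0.06 and 0.01 ± 0.07. The 3 partners therefore stayed within their errors among CDS embryos, and only Bop1 exceeded its standard error among PAS embryos. Nop2, an RNA methyltransferase, had changes of 0.03 ± 0.06 and 0.01 ± 0.06. Mrto4, which holds the place of a stalk protein on the precursor, had changes of -0.04 ± 0.05 and -0.07 ± 0.06.

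The 4 nucleolar proteins with several roles carry 44.7% to 46.6% of the list's CPM, depending on the library. Npm1 measured 675, 692, 657 and 709 CPM in CDS knockouts and 711, 647, 641 and 694 CPM in CDS controls. Libraries with the PAS knockout label held 653, 633, 701 and 610 CPM, and 595, 653 and 681 CPM in PAS controls. The groups overlap in both lines, with log2 changes of 0.02 ± 0.05 and 0.01 ± 0.05.

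Ncl measured 656, 665, 650 and 662 CPM in CDS knockouts and 678, 630, 682 and 719 CPM in CDS controls. Those labelled PAS knockout held 718, 687, 690 and 702 CPM, and 737, 714 and 746 CPM in PAS controls. One or more libraries of each knockout group lie above the lowest control, and the changes were -0.04 ± 0.04 and -0.07 ± 0.04. Mybbp1a had changes of -0.03 ± 0.04 and 0.03 ± 0.05. Ddx21, an RNA helicase that works with both polymerase I and snoRNPs, had changes of -0.02 ± 0.05 and -0.04 ± 0.05.

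The 9 factors that were neither extreme in level nor in change within their role were Bms1, Ebna1bp2, Emg1, Imp4, Nob1, Nop14, Rrp12, Tsr1 and Wdr43. Among CDS embryos their changes lay between -0.03 (Nop14 and Imp4) and 0.06 (Tsr1), and among PAS embryos between -0.05 (Nop14) and 0.07 (Tsr1). Tsr1, a late factor of the small subunit, thus had estimates of 0.06 ± 0.05 and 0.07 ± 0.05, but 32.3% of its exon bases are shared with Srr on the opposite strand, and the counting used no strand. Emg1, a methyltransferase of the small-subunit RNA, shares 7.21% of its exon bases with Lpcat3 in the same way, and had changes of 0.01 ± 0.05 and 0.00 ± 0.05. Rrp12, which helps to export the small-subunit precursor, had changes of 0.05 ± 0.06 and 0.06 ± 0.06, and Wdr43, a processome protein, 0.02 ± 0.04 and 0.00 ± 0.05. Ebna1bp2, of large-subunit assembly, had changes of 0.01 ± 0.05 and -0.04 ± 0.06. Bms1, a GTPase of the processome, had changes of 0.02 ± 0.04 and -0.03 ± 0.04.

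Whether the knockout labels of both lines went with different changes was tested gene by gene as the PAS change minus the CDS change. No factor was called, the smallest adjusted p was 0.995 by edgeR's quasi-likelihood test, and 0.00493% of all genes were called. No factor had an unadjusted p under 0.05, beside 4.16% of all genes. Estimates ran from -0.15 (Fbl) to 0.10 (Polr1a), with a median of -0.02 against 0.00 over all genes, and all 36 intervals spanned 0. Of the 36 estimates 10 (27.8%) were positive, beside 49.9% over all genes. That count depended on single libraries and moved both ways. It was 17 without CDS knockout 4, 16 without CDS control 2 and 18 without PAS control 3. Without CDS knockout 3, or without the library labelled PAS knockout 1, it was 8. By role, 3 of 5 polymerase I, 0 of 5 snoRNP, 6 of 14 small-subunit and 0 of 8 large-subunit estimates were positive. Of the 4 nucleolar proteins with several roles 1 was. Large-subunit factors shifted together within libraries, with 0 of 8 above the group mean in CDS knockout 3 and 8 of 8 in CDS knockout 4. The signs also say little where an estimate was small beside its error, as for Nop58 (0.00 ± 0.06) and Pes1 (-0.01 ± 0.07). The intervals of this difference are wider than those within a line, from -0.38 to 0.33 at the extremes.

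The libraries of a group differed from one another along the whole list. In CDS knockout 3 only 2 of 36 factors lay above the mean of the CDS knockouts, and in CDS knockout 4 34 of 36 did, with median deviations of -0.044 and 0.042 log2. CDS control 2 had 6 of 36 above its group mean (median -0.045), and the library labelled PAS knockout 1 had 30 of 36 (median 0.048). Over all tested genes 50.6% and 51.7% lay above the group mean in CDS knockouts 3 and 4, and the median deviations were 0.002 and 0.004. These shifts are larger than the median estimate of any comparison between groups. Knockouts 3 and 4, which lie at opposite ends for these factors, are the same 2 libraries that had the highest sums of choroid plexus markers, mostly Ttr and Enpp2. Markers of other cells differed between them. In CDS knockouts 3 and 4 in turn, the blood gene Hbb-y was 2140 and 836 CPM. The mesenchyme gene Twist1 was 66.9 and 35.2 CPM, and the cardiomyocyte gene Actc1 8930 and 10500 CPM. Whether cell content bears on the shifts was not tested.

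**Figure D3:**
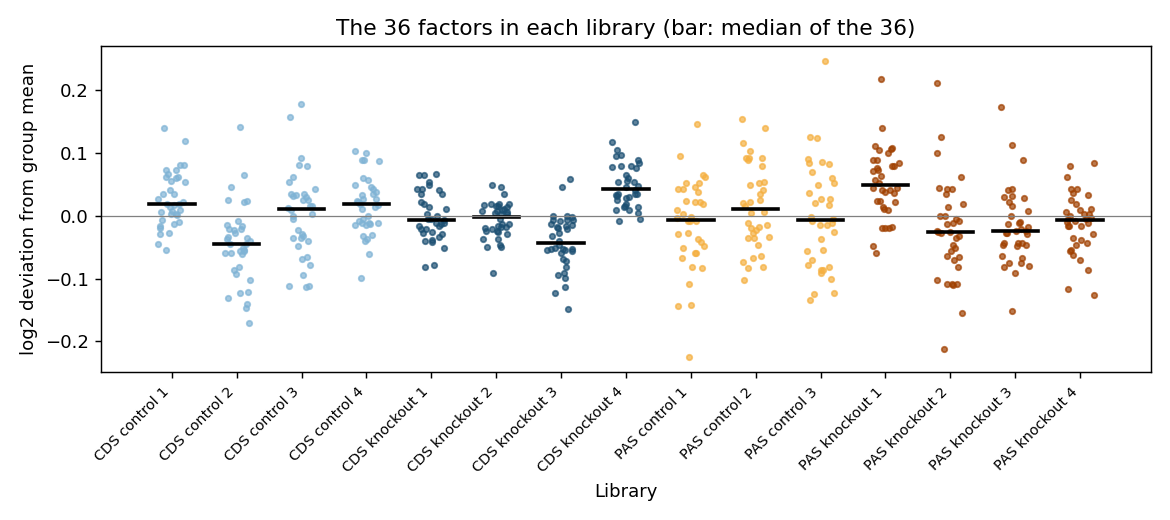
Log2 deviation of each of the 36 factors (points) from the mean of its own group in each library, with a bar at the median of the 36. CDS knockout 3 and CDS control 2 lie mostly below 0, and CDS knockout 4 and PAS-labelled knockout 1 mostly above it.

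Lines were also compared with each other, once in the controls and once in the knockouts. Those 2 comparisons share no library, but line, depth and counting run change together in them and cannot be told apart. In the controls no factor was called (0.143% of all genes were, by edgeR's quasi-likelihood test), and 4 had an unadjusted p under 0.05, beside 9.6% of all genes. Between the knockouts 1 factor was called, and it was lower under the PAS label, where 0.888% of all genes were called lower and 1.17% in either direction. Unadjusted p-values under 0.05 were found for 8 factors, against 13.5% of all genes.

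Gnl3 was the factor called. It encodes nucleostemin, a nucleolar GTPase of large-subunit assembly, and lies on chromosome 14 (GRCm39, chr14:30734390-30741109, minus strand). Levels were 61.0, 57.4, 59.9 and 56.5 CPM under the PAS knockout label and 64.4, 68.6, 67.8 and 72 CPM in CDS knockouts. No library of one group reaches the other. The log2 difference was -0.22 ± 0.05, or 0.861-fold (adjusted p = 0.0282 by edgeR's quasi-likelihood test). In the controls Gnl3 was 61.3, 61.4 and 59.0 CPM among PAS embryos and 69.6, 60.9, 65.2 and 71.7 CPM among CDS embryos. One CDS control lies among the PAS controls, and the difference was -0.14 ± 0.05 (unadjusted p = 0.0119, adjusted p = 0.353). The call was lost without CDS knockouts 3 and 4 (-0.18, adjusted p = 0.301), and leaving out CDS knockout 2, 3 or 4, or the library labelled PAS knockout 2, 3 or 4, gave adjusted p-values of 0.1, 0.0517, 0.0837, 0.054, 0.0515 and 0.117. Within each line Gnl3 was not called, with changes of 0.03 ± 0.05 and -0.05 ± 0.05. Its exons share 15 bases with those of Pbrm1 on the opposite strand.

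**Figure D4:**
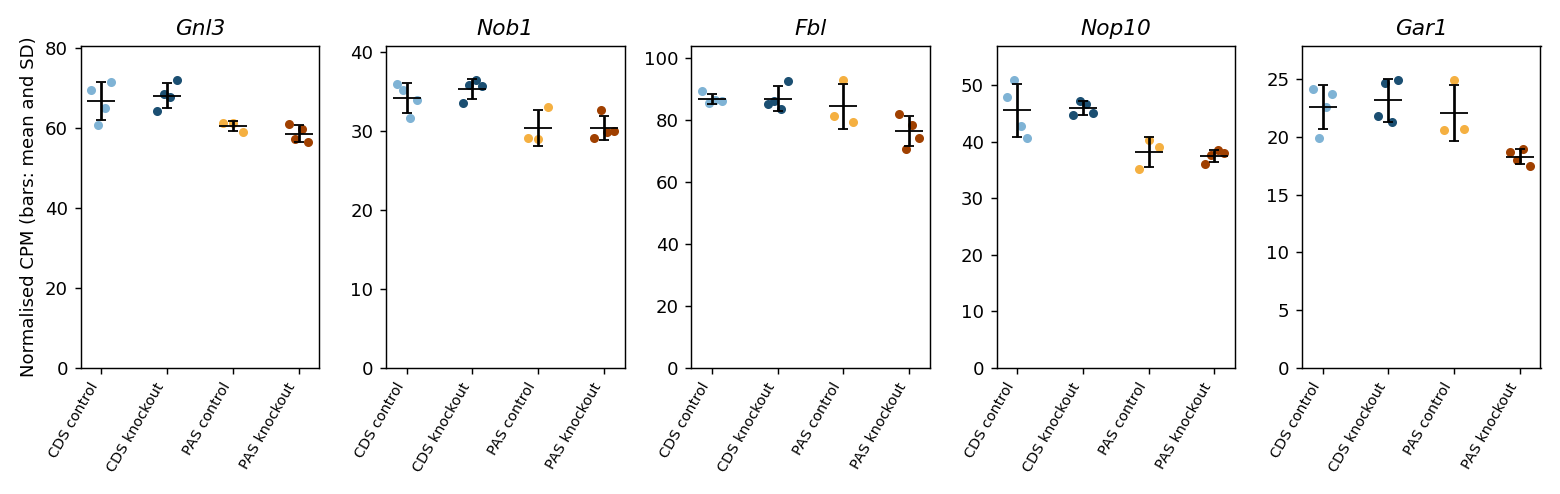
Normalised CPM in each library (points), with the mean and SD of each group (bars), of Gnl3, Nob1 and Fbl and of the snoRNP genes Nop10 and Gar1 from the wider pathway list; each axis starts at 0. Nop10 is lower in all 7 PAS libraries (35.1 to 40.3 CPM) than in all 8 CDS libraries (40.6 to 50.8 CPM), whereas for Gar1 only the libraries labelled PAS knockout lie below all the others.

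Nob1 and Fbl came next, and they are named here because of their values. Nob1, the nuclease that makes the last cut of the small-subunit RNA, was 29.1, 32.6, 29.9 and 30.0 CPM under the PAS knockout label and 33.5, 35.8, 36.4 and 35.7 CPM in CDS knockouts. The groups do not overlap, and the difference was -0.22 ± 0.06 (adjusted p = 0.0555 by edgeR's quasi-likelihood test). Its PAS controls measured 29.1, 29.0 and 33.0 CPM and its CDS controls 35.9, 35.2, 31.6 and 33.9 CPM, a difference of -0.17 ± 0.06 (adjusted p = 0.34). Fbl had a difference of -0.19 ± 0.05 between the knockouts (adjusted p = 0.0719) and -0.04 ± 0.05 between the controls (adjusted p = 0.864).

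Groups did not overlap between the knockouts for 7 factors: Polr1a, Utp20, Imp4 and Ncl were higher under the PAS label, beside 4.04% of all genes, and Fbl, Nob1 and Gnl3 lower, beside 4.82%. Imp4, a U3 snoRNP partner, had a difference of 0.12 ± 0.04, Utp20 0.11 ± 0.04, Polr1a 0.10 ± 0.04 and Ncl 0.09 ± 0.04. In the controls Rrn3 and Ltv1 were the 2 factors without overlap, both higher among PAS embryos (4.3% of all genes), at 0.07 ± 0.04 and 0.11 ± 0.04.

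The line difference of a factor had the same sign in controls and in knockouts for 27 of 36 factors (75%). It did so for 65.7% of the 140 tested genes of the wider pathway list described below, and for 61.3% of all genes. Across the 36 genes the 2 sets of differences had a Pearson correlation of 0.83. It was 0.54 across the wider pathway list and 0.28 across all tested genes, most of which have fewer counts. Genes are not independent replicates, and all points share the same libraries. Gnl3, Nob1 and Ncl had an unadjusted p under 0.05 with the same sign in both. That is 8.33% of the factors, beside 5% of the wider pathway list and 3.3% of all genes. Groups without overlap in both comparisons, in the same direction, were found for 0% of the factors, beside 1.88% of all genes.

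**Figure D5:**
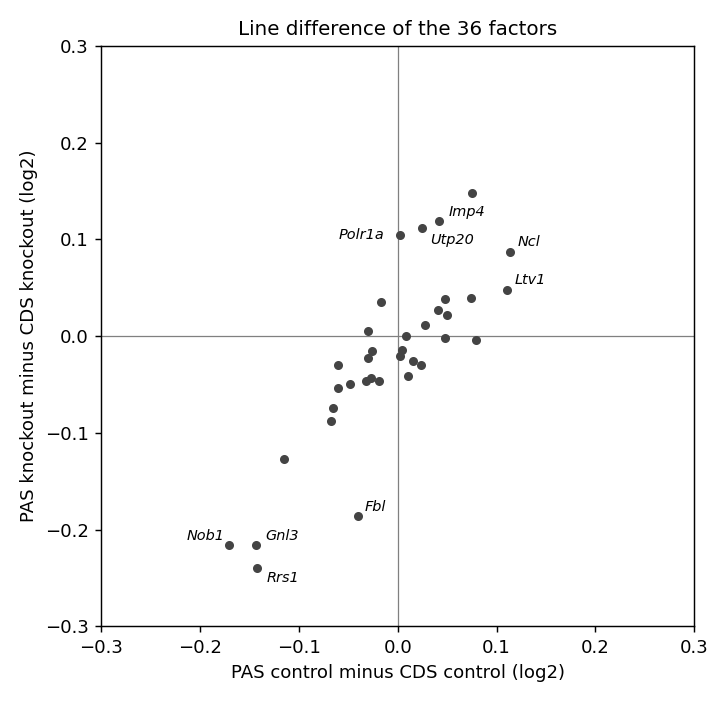
Log2 difference between the lines of each of the 36 factors, in the controls (horizontal axis) and in the knockouts (vertical axis); names mark factors with an unadjusted p under 0.05 in at least one of them. Gnl3, Nob1 and Rrs1 lie at the lower left, at -0.22, -0.22 and -0.24 between the knockouts.

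The wider pathway was read from a second list of 141 genes, 140 of which were tested: 11 of polymerase I transcription, 13 of snoRNPs, 45 of small-subunit and 57 of large-subunit assembly, and 14 that trim or degrade precursor RNA. None was called in CDS knockouts, under the PAS knockout label, in the difference of both changes or between the controls by edgeR's quasi-likelihood test. An unadjusted p under 0.05 was found for 3, 6, 3 and 17 of the 140 in that order, and for 23 between the knockouts of the lines. Over all tested genes the shares were 2.62%, 5.24%, 4.16%, 9.6% and 13.5%. Median log2 changes were 0.00 and -0.01 in the CDS and PAS comparisons, against 0.00 over all genes in both. Between the knockouts of the lines 2 of the 140 were called, both lower under the PAS label, beside 0.888% of all genes called lower. They were Nop10 and Gar1.

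Nop10, a small core protein of box H/ACA snoRNPs, was 36, 37.6, 38.5 and 37.9 CPM under the PAS knockout label and 44.6, 47.1, 46.7 and 45 CPM in CDS knockouts. The difference was -0.29 ± 0.06 (adjusted p = 0.0164 by edgeR's quasi-likelihood test). Between the controls it was -0.25 ± 0.06 (adjusted p = 0.143), again with no overlap. Gar1, another core protein of these particles, was 18.7, 18, 19 and 17.5 CPM under the PAS knockout label and 21.8, 24.7, 21.3 and 24.9 CPM in CDS knockouts, a difference of -0.34 ± 0.07 (adjusted p = 0.0258). Between the controls Gar1 differed by only -0.04 ± 0.08. Against its own controls, at 20.6, 24.9 and 20.7 CPM, the PAS knockout label had a change of -0.27 ± 0.08 (adjusted p = 0.934), and the groups do not overlap. Dkc1, the enzyme of the same particles and one of the 36, had a difference of -0.04 ± 0.04 between the knockouts. Groups without overlap in both line comparisons, in the same direction, were found for 3.57% of the 140 genes (4 lower and 1 higher among PAS embryos). Over all tested genes the share was 1.88%. Znhit6, of snoRNP assembly, was also lower in all PAS libraries (15.3 to 18.4 CPM) than in all CDS libraries (18.8 to 19.9 CPM). Exosc10, which trims precursor RNA, was higher (103 to 108 against 93.9 to 101 CPM).

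Myc, Mycn and Max are the transcription factors best known for binding such E-boxes at ribosome biogenesis genes. None was called in either knockout comparison by edgeR's quasi-likelihood test. Myc had changes of 0.00 ± 0.07 and -0.05 ± 0.08, Mycn -0.03 ± 0.06 and 0.06 ± 0.07, and Max 0.00 ± 0.05 and -0.05 ± 0.06. Between the lines none was called either, but all estimates were lower among PAS embryos. Max differed by -0.18 ± 0.05 between the knockouts (adjusted p = 0.0978 by the same test) and -0.13 ± 0.06 between the controls. Its knockout groups did not overlap (4.82% of all genes, lower). Myc differed by -0.16 ± 0.08 and -0.11 ± 0.08, and Mycn by -0.08 ± 0.06 and -0.16 ± 0.06, in that order. Mycn was the more abundant of the 2 Myc genes per kb, at 15.2 against 7.54 CPM per kb.

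The 9 factors with an E-box in the promoter window had log2 changes from -0.03 to 0.06 among CDS embryos and from -0.09 to 0.07 among PAS embryos, and the 21 without one from -0.04 to 0.07 and from -0.07 to 0.07. Nop14, a processome protein and the one with the ATF4 element, was 37.3, 36.6, 39.1 and 37.3 CPM in CDS knockouts and 37.6, 35.2, 40.8 and 39.8 CPM in CDS controls, a change of -0.03 ± 0.05. In libraries labelled PAS knockout it was 40.2, 35.1, 37.3 and 38.9 CPM, with controls at 40.3, 37.1 and 39.8 CPM and a change of -0.05 ± 0.06.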

How the data were processed

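The authors deposited raw counts of fragments per gene, as whole numbers. Per the file headers, featureCounts 2.1.1 made them in paired mode over exons of GENCODE mouse release M37 (GRCm39). It was run separately for the lines, with no strand option. The submitters' processing notes list FastQC, fastp, HISAT2 2.2.1, STAR 2.7.11b, featureCounts and DESeq2. Which aligner made these files is not given in the sources used here. Names were taken by identifier from GENCODE mouse release 21 and cover 51487 identifiers with 98.85% of counts.

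The 15 libraries were fitted together with edgeR 4.0.16 (R 4.3.3): filterByExpr with a minimum count of 10 (20269 genes), TMM scaling (factors 0.986 to 1.01), a mean per group, and the robust quasi-likelihood test with 11 residual degrees of freedom. A gene was called where its p, adjusted over all tested genes by the Benjamini-Hochberg method, was under 0.05. Standard errors come from the F statistic and 95% intervals from the t distribution with each gene's degrees of freedom. The biological coefficient of variation was 7.44%. The chi-square per degree of freedom between replicates was 3.45 to 64, so none were merged. The fitting code was tried on simulated counts that had the same spread for all genes and no shifts between libraries. That trial cannot show how the fit behaves with the shifts between libraries described above. CPM per kb divides by the length of all annotated exons.

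The members, lists and rules were chosen with earlier results of these data known. Values were given for each factor called, for the highest and lowest per kb and for the largest changes in each role, and for called genes of the pathway list. Factors outside this rule (Nob1, Nop14, Imp4, Tsr1, Emg1, Bms1, Rrp12, Wdr43 and Ebna1bp2) were named after their values were seen. So were the pathway genes Znhit6 and Exosc10. Alternatives were DESeq2 1.42.0 size factors and test, limma 3.58.1 voom, no filter, the compared groups alone, a replicate block, removal of haemoglobin, mitochondrial and ENSMUSG00000119584 counts, and leaving out each library.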

Additional observations from a re-analysis of the deposited data

Results flagged for a closer look

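In each group of 4, libraries were checked for a gap to their nearest neighbour that took up most of the group's range. The values checked were each factor's level, the sums per role and over all factors, and the share of counts in ENSMUSG00000119584. Of 129 such checks 5 stood out, and chance alone marks about 5% of them.

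Rrn3 was 87.7 CPM in CDS knockout 4 and 80.2 to 81.4 CPM in the other 3. Rrp9 was 21.9 CPM in CDS control 2 and 23.6 to 23.8 CPM in the other 3. The summed snoRNP genes were 503 CPM in CDS control 2 (others 518.1 to 520.5), and 522.4 CPM in the library labelled PAS knockout 1 (others 489.9 to 492.7). These 3 libraries are those with most factors on one side of the group mean, apart from CDS knockout 3. In CDS knockout 3 the gene ENSMUSG00000119584 took 3.24% of counts, against 0.638% to 0.643% in the other CDS knockouts.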

How the results depend on the processing

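In the CDS, PAS and difference comparisons and between the controls, 0 factors were called under each of 23 alternatives. Medians over the 36 lay from -0.012 to 0.015, -0.026 to 0, -0.037 to 0.001 and -0.017 to 0.008. Between the knockouts of the lines the factors called lower, 1 as reported, were 3 without the filter and 3 with DESeq2 (Fbl, Nob1 and Gnl3 each time), and 0 without CDS knockouts 3 and 4, an alternative chosen after seeing the data. Leaving out single libraries gave 0 to 2. The replicate block gave 1, Gnl3, and changed no call of a factor. Same-numbered knockouts and controls correlated at 0.06, -0.03, 0.05 and 0 in the CDS line and 0.02, -0.17 and -0.04 in the PAS line, so the numbers were not taken to pair them. Counts over all genes moved more: without the filter 31, 7, 3, 201 and 500 were called, and with DESeq2 20, 7, 2, 101 and 482, against 11, 2, 1, 29 and 237 as reported, in the order CDS, PAS, difference, controls and knockouts. Without CDS knockouts 3 and 4 the last count was 46, with the compared groups alone the PAS count was 1 and the count between controls 10, and leaving out single libraries gave 15 to 43 between controls, 65 to 306 between knockouts, 2 to 3 for PAS and 1 to 2 for the difference. The median of all genes moved by at most 0.016 log2 from its reported value. The median standard error of a factor's change, 0.05 log2 in each line, limits what these group sizes can show.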
